A study of Mus musculus with 4 samples.

Results

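The library of expanded group 2 innate lymphoid cells (ILC2) was compared with the 3 other libraries of the series, 1 of natural killer (NK) cells and 2 of the MNK-3 line. It is 1 of 4 libraries in all. Genes were taken as set apart in ILC2 by size alone, over the 30731 genes listed in all 4 tables, in CPM, the count of a gene per 1000000 shared-gene reads of its library. A gene set apart as higher had at least 10 CPM in ILC2 and at least 4 times the CPM of the NK library and of each MNK-3 library. A gene set apart as lower had at most 25% of the CPM of every other library, each of which held at least 10 CPM. These rules gave 203 higher genes, or 0.661% of the shared genes, and 129 lower genes, or 0.42%. The sets were chosen by these very levels, so the values below are descriptions, and with 1 ILC2 library no test and no p-value is given.

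ILC2 and NK cells were wild type and were pooled from C57BL/6 mice aged 8 to 12 weeks, ILC2 from bone marrow and NK cells from spleen. ILC2 had been expanded in culture with the alarmins IL-33 and IL-25 plus IL-2 and IL-7, at 10 ng/ml, and no cytokine is named for the NK cells. MNK-3 is a wild-type cell line with ILC3-like features that goes back to thymocytes of NIH-Swiss fetuses at day 15, and it was grown in IL-7 and IL-15 at 10 ng/ml. The NK and ILC2 libraries had 1 replicate each, whereas MNK-3 had 2, and nothing says that these came from separate cultures. Cell type, tissue and culture cannot be told apart in this design, nor, against MNK-3, can strain and the gene set used for counting. In bulk RNA, fewer cells of a type and less RNA per cell cannot be told apart either.

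ILC2 are tissue lymphocytes without a rearranged antigen receptor. Epithelial alarmins such as IL-33 and IL-25 activate them, and they then secrete the type 2 cytokines IL-5 and IL-13, which act on eosinophils, mucus-producing epithelium and smooth muscle. The transcription factor GATA3 is needed for their development and for their cytokine genes, and the IL-33 receptor ST2, encoded by Il1rl1, is a common surface marker. Marrow holds an immature pool of these cells, which can be grown in alarmins and the growth cytokines IL-2 and IL-7.

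Of the genes that define the cell, Il13, Il5 and Il1rl1 are shown first, with the 250 bases before their RefSeq start (GRCm38.p6). They were chosen because the GATA letters AGATAA or AGATAG lie in each of these windows, so the matches are not a test. Gata3 was itself set apart as higher, but its own window is not shown. The 5' to 3' sense strand is given, capitals mark the motif on either strand, and no matches overlap. Il13 and Il5 lie 86.1 kb apart on chromosome 11, and Il1rl1 lies on chromosome 1. Hmgcs1, an enzyme of cholesterol synthesis on chromosome 13, is shown for the sterol regulatory element letters TCACNCCAC. The windows are chr11:53634703-53634952 (minus strand) for Il13, chr11:53720544-53720793 for Il5, chr1:40429320-40429569 for Il1rl1 and chr13:119690101-119690350 for Hmgcs1, the last 3 on the plus strand.
Il13: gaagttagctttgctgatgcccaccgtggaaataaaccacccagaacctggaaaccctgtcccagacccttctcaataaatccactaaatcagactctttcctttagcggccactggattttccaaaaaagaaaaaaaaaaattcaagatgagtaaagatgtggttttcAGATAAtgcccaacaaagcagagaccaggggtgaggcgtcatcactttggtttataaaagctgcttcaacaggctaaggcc
Il5: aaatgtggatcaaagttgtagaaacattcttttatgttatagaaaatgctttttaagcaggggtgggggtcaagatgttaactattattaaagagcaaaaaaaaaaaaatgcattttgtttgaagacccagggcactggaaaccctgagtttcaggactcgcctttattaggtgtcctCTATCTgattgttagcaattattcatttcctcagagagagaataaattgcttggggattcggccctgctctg
Il1rl1: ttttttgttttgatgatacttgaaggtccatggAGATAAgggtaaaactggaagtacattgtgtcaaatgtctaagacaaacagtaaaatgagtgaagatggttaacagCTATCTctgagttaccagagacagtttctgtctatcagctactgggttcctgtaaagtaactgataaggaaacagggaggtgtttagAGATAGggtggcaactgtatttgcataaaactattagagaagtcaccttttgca
Hmgcs1: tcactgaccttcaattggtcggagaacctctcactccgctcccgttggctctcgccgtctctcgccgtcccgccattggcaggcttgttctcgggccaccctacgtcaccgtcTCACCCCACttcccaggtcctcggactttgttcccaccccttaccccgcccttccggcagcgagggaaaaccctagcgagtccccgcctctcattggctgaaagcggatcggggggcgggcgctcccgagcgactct

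Counted to its first base on the sense strand, the GATA match lay 81 bases before the start of Il13 and 72 bases before that of Il5, and the 3 matches lay 217, 141 and 54 bases before that of Il1rl1. Among all 32851 promoters in the RefSeq table, 16.5% held the GATA letters in this window. Of 18 promoters of the cytokine genes listed below, 33.3% held them. Of 196 promoters matched to 153 of the 203 higher genes, 11.7% held them, and of 147 promoters matched to 101 of the 129 lower genes, 6.12% held them. The median GC content was 46.6% in the cytokine promoters, 52.4% in all promoters, 57.6% in those of higher genes, 60.8% in those of lower genes and 62.8% in those of glycolysis and of cholesterol genes alike. The letters ACGTG, the core bound by hypoxia-inducible factors, lay on either strand in 34.6% of 26 glycolysis gene promoters, in 23.5% of 17 cholesterol gene promoters in 21.9% of higher gene promoters, in 12.9% of lower gene promoters and in 5.56% of cytokine promoters, against 16.6% of all. TCACNCCAC was in 1 of those 17 cholesterol promoters (5.88%), that of Hmgcs1, in 2 of 26 glycolysis promoters (7.69%), in 2.04% of higher gene promoters, in none of the lower gene or cytokine promoters and in 1.05% of all. A match describes letters in a window and not a bound site.

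The libraries held between 4637812 (NK) and 25617762 (MNK-3 replicate 1) reads in shared genes, with 9298162 in ILC2. One count was worth 0.108 CPM in ILC2, and no counts allow a level of up to 0.323 CPM there, 0.647 CPM in NK, 0.117 CPM in MNK-3 replicate 1 and 0.198 CPM in MNK-3 replicate 2 (3 counts in each, counting error only). MNK-3 replicate 1 stood apart. Entries that name no gene took 76.5% of its reads, against 25.9% to 49.3% elsewhere, and 95.6% of shared genes had a count in it, against 69.6% to 76.0%. It was the nearest library for 144 of the 203 higher genes, while NK was nearest for 36 and replicate 2 for 23. Without replicate 1, 338 genes were set apart as higher and 140 as lower. Without replicate 2, the counts were 218 and 319. Levels are therefore given for each MNK-3 library on its own, replicate 1 first, and where 3 levels stand together they are those of NK and then of MNK-3 replicates 1 and 2.

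Among the 203 higher genes, 197 encode proteins, 5 are lincRNAs and 1 is an antisense gene. Their median level was 103 CPM in ILC2, against 2.80 CPM in NK, 8.00 CPM in MNK-3 replicate 1 and 0.922 CPM in replicate 2. Together they took 6.18% of ILC2 reads, against 0.379% in NK and 0.539% and 0.489% in MNK-3. The median fold over the nearest library was 7.51, with 96 genes at 8-fold or more, 26 at 32-fold or more and 11 at 100-fold or more. The 129 lower genes took 0.128% of ILC2 reads, against 1.62% in NK and 1.23% and 1.40% in MNK-3, with a median fold of 7.27 below the nearest library. Against NK alone 996 genes were higher and 708 lower by the same sizes, and against both MNK-3 libraries alone 317 were higher and 715 lower. Of the genes at 10 CPM or more in ILC2, 2.29% were set apart as higher, and of those at 10 CPM or more in each other library, 1.69% as lower.

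**Figure D1:**
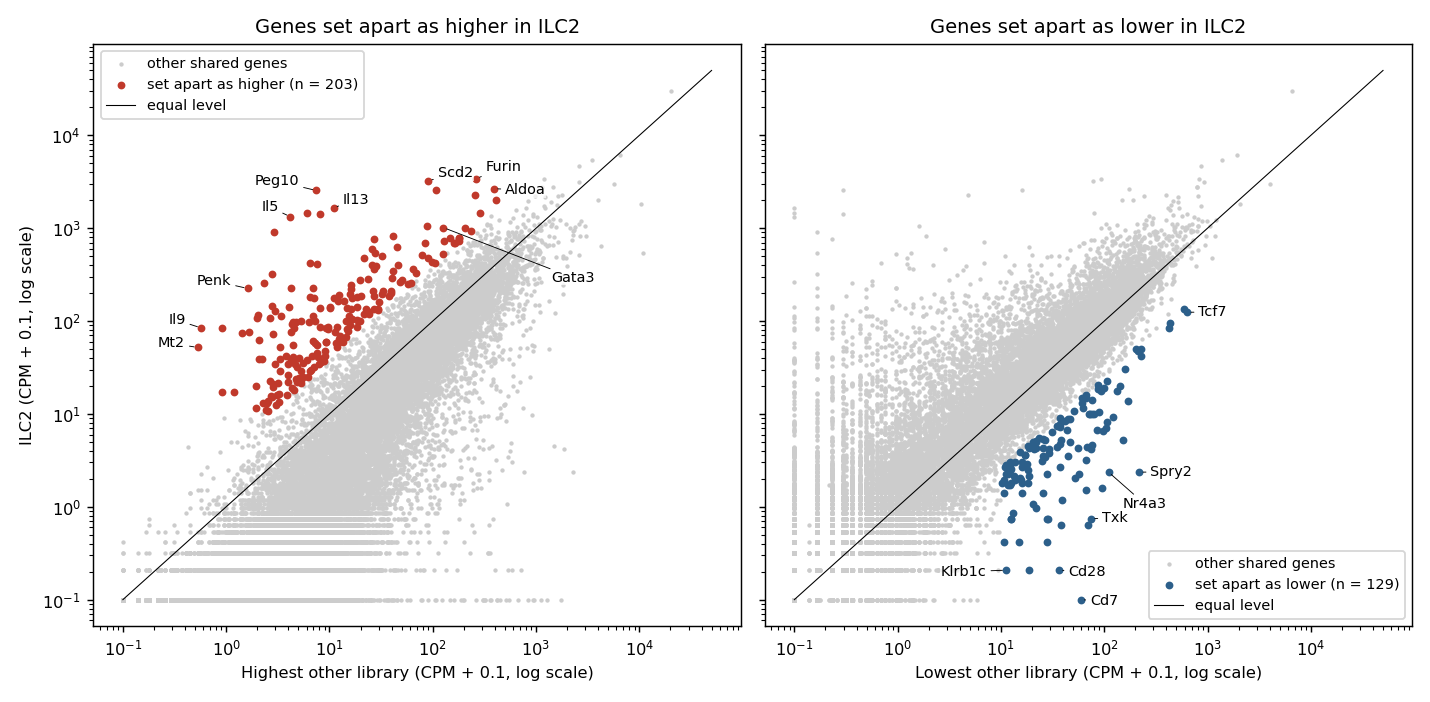
Level of each of the 30731 shared genes in ILC2 (vertical, CPM + 0.1, log scale) against the highest other library (left) or the lowest other library (right, same unit). Coloured points are the 203 genes set apart as higher and the 129 set apart as lower, grey points all other genes, and the line marks equal levels; Peg10, Il13 and Il5 lie over 100-fold above every other library, and Cd28 and Cd7 over 100-fold below.

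The label of the ILC2 library was checked against its 4 defining genes, and all were set apart as higher. Il13 had 1663 CPM in ILC2, 0.431 CPM in NK, 10.9 CPM in MNK-3 replicate 1 and no counts in replicate 2. Il5, which drives eosinophil growth, had 1334 CPM in ILC2 and no counts in NK, while MNK-3 had 4.06 CPM and no counts. Il1rl1 had 1457 CPM in ILC2 and 1.08 CPM in NK, while MNK-3 had 5.93 CPM and no counts. ILC2 was thus 153-fold above the nearest library for Il13, 329-fold for Il5 and 246-fold for Il1rl1, and without MNK-3 replicate 1 Il5 was at least 2063-fold above NK and at least 6751-fold above replicate 2. Gata3 had 1015 CPM in ILC2 and 127 CPM in NK, while MNK-3 had 97.5 and 93.0 CPM, an 8.02-fold distance. Unlike the other three, Gata3 was well above 0 in every library. Per kilobase of merged exon, Il13 had 1380 CPM in ILC2 and Il5 868 CPM, the first and the third of the higher genes, with Aldoa at 916 CPM between them.

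Defining genes of the other cell types were low in ILC2. Ncr1, the NK receptor NKp46, had no counts, against 1114 CPM in NK. Eomes and Tbx21, T-box factors of NK cells, had 9.57 and 2.37 CPM in ILC2, against 905 and 465 CPM in NK. Il23r, a cytokine receptor of group 3 cells, had no counts, against 209 and 306 CPM for MNK-3.

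Markers of further cells that a marrow culture could hold were lower in ILC2 than in another library for most lists, but their sums were highest in ILC2 for the B cell and the stromal list. The 14 mast cell and basophil markers summed to 141 CPM in ILC2, against 261 CPM in NK and, for MNK-3, 1106 and 1543 CPM, and of these only Kit reached 10 CPM in ILC2, at 123 CPM, while Fcer1a, Ms4a2, Cpa3, Mcpt4 and Cma1 had no counts. The 12 eosinophil and neutrophil markers summed to 3.01 CPM in ILC2 and the 11 erythroid and megakaryocyte markers to 4.30 CPM. Those of monocytes, macrophages and dendritic cells summed to 30.3 CPM, against 804 CPM in NK and, for MNK-3, 182 and 75.8 CPM. T cell markers summed to 85.2 CPM, mostly Zap70 at 38.5 CPM and Lat at 24.7 CPM, with Cd3e at 9.03 CPM and Trac at 0.215 CPM. The 12 B cell and plasma cell markers summed to 173 CPM in ILC2, against 146 CPM in NK and, for MNK-3, 121 and 73.5 CPM. Most of this was Ighm, an immunoglobulin heavy chain, at 128.5 CPM in ILC2 and 127 CPM in NK, with 51.2 and 65.3 CPM for MNK-3. Cd79b, a chain of the B cell receptor complex, was set apart as higher at 37.6 CPM, while Cd79a had 0.430 CPM and Ms4a1 no counts. The 11 stromal and endothelial markers summed to 249.1 CPM in ILC2, against 129 CPM in NK and, for MNK-3, 149 and 27.9 CPM. Most of this was Pecam1, which leukocytes also carry, at 208 CPM in ILC2 against 92.9 CPM in NK and, for MNK-3, 59.96 and 21.2 CPM. Lum, a matrix proteoglycan, was set apart at 16.1 CPM, and Cxcl12 had 10.9 CPM, while Dcn had 0.323 CPM and Cdh5 0.108 CPM. The part that such cells had in the values below was not tested.

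Secreted cytokines were the first group. Of 20 listed, 8 were set apart as higher (40.0%, against 0.661% of all shared genes) and none as lower. Of genes at 10 CPM or more in ILC2, 2.29% were set apart as higher, and these shares stand beside every list below. All lists were chosen with earlier results of these data known. Without MNK-3 replicate 1, and with trimmed-mean or median-of-ratios scaling, 9 cytokines were higher. The summed level of the 20 cytokines was 4251 CPM in ILC2, against 289 CPM in NK and, for MNK-3, 338 and 347 CPM. The list median of the log2 ratio, taken after adding 0.5 CPM, was 2.33 over NK, 0.11 over MNK-3 replicate 1 and 1.96 over replicate 2, and its sign over replicate 1 turned with the scaling on abundant genes (-0.04). Over all shared genes these medians were -0.09, -1.30 and 0. With genes lacking counts put at their floor, the list medians were 3.88, 0.10 and 3.82.

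Il9, which supports ILC2 survival and mast cells, had 84.5 CPM in ILC2 and 0.216 CPM in NK, while MNK-3 had 0.468 and 0.0659 CPM, 181-fold above the nearest. Il6, a pleiotropic inflammatory cytokine, had 107 CPM in ILC2 against 0.431 CPM in NK and, for MNK-3, 2.54 and 0.0659 CPM. Csf2, which encodes the growth factor GM-CSF, had 99.9 CPM against 4.53, 4.33 and 5.21 CPM. For these genes every other library lay under 6 CPM. Areg, an epidermal growth factor family ligand made by ILC2 in tissue repair, had 92.9 CPM against 0.647 CPM in NK and, for MNK-3, 4.25 and 3.76 CPM. The related cytokines Osm and Lif stand side by side on chromosome 11, 16.5 kb apart. Osm had 247 CPM in ILC2 against 16.2 CPM in NK and, for MNK-3, 7.77 and 0.461 CPM. Lif had 198 CPM against 2.16 CPM in NK and, for MNK-3, 15.7 and 7.84 CPM. Castor1, an arginine sensor of the mTOR pathway 14 kb on the other side of Osm, was also set apart, at 141 CPM against at most 9.92 CPM.

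Il4, the other classical type 2 cytokine, was not set apart. It had 15.9 CPM in ILC2 and 1.08 CPM in NK, while MNK-3 had 8.63 and 1.98 CPM, so that replicate 1 alone kept it out. Il4 lies between Kif3a and Il13 on chromosome 11 (53602982 to 53618669, mm10), and Il13 spans 53631324 to 53634702 and Il5 53720794 to 53725106. Rad50, the DNA repair gene that separates Il13 from Il5, had 421 CPM in ILC2 and 109 CPM in NK, while MNK-3 had 253 and 297 CPM. Kif3a had 57.2 CPM in ILC2 against 5.82, 80.02 and 75.4 CPM, its neighbour Sept8 197 CPM against 7.12, 238 and 295.5 CPM, and Irf1 on the far side of Il5 73.9 CPM against 255, 82.9 and 67.6 CPM. In this cluster, only Il13 and Il5 met the size rule against every other library. Cytokines of other groups were low: Ifng had 0.215 CPM in ILC2 against 53.0 CPM in NK, Tnf 0.538 CPM against 33.1 and 35.7 CPM for MNK-3, and Il17a no counts.

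Receptors for alarmins and cytokines followed, with 5 of 26 set apart as higher (19.2%) and none as lower, or 2 without MNK-3 replicate 2. Il2ra, which encodes CD25 of the IL-2 receptor, had 2256 CPM in ILC2 and 4.74 CPM in NK, while MNK-3 had 208 and 254 CPM. All 3 other libraries lay far below ILC2, and NK lay far below MNK-3. Il1r2, a decoy receptor for IL-1, had 325 CPM in ILC2 against 0.216 CPM in NK and, for MNK-3, 2.65 and 0.0659 CPM. It shares a stretch of chromosome 1 with Il1rl1, in which Il1r1 was high only in MNK-3 (186 and 269 CPM against 1.51 CPM in ILC2), and in which Il18r1 had 25.5 CPM and Il18rap 461 CPM in ILC2, against 594 and 976 CPM in NK. Csf2rb, the common chain of the IL-3, IL-5 and GM-CSF receptors, had 186 CPM against 0.216 CPM in NK and, for MNK-3, 20.2 and 0.395 CPM. Its neighbour Csf2rb2 is a close copy, at 85.5 CPM against at most 7.92 CPM, so the split of reads between these copies is uncertain.

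Receptors for the culture cytokines were not all set apart. Il7r had 348 CPM in ILC2 and 50.02 CPM in NK, while MNK-3 had 269 and 347 CPM, so ILC2 and MNK-3 lay close together. Il17rb, the IL-25 receptor chain, had 3.98 CPM in ILC2 and 3.88 CPM in NK, while MNK-3 had 25.8 and 2.50 CPM. Il9r had 64.7 CPM in ILC2 against 1.08 CPM in NK, while MNK-3 had 24.4 and 0.791 CPM, so that replicate 1 alone kept it out of the set.

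**Figure D2:**
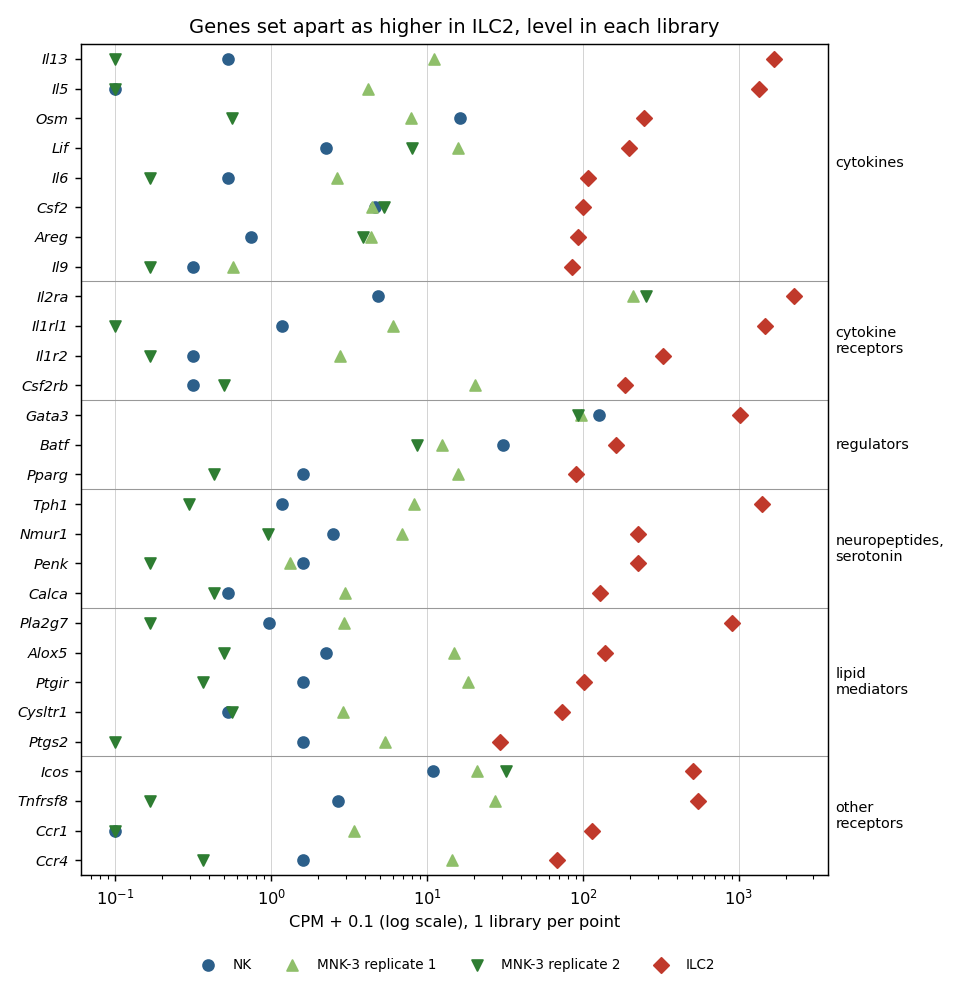
CPM + 0.1 (log scale) of selected genes set apart as higher in ILC2, by function, with 1 point per library: diamonds ILC2, circles NK, upward and downward triangles MNK-3 replicates 1 and 2. ILC2 is the rightmost point in every row, and MNK-3 replicate 1 is often the nearest, for instance at 10.9 CPM for Il13 against 1663 CPM.

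Of 23 regulators known in group 2 cells, Gata3, Batf and Pparg were set apart as higher (13.0%) and Tcf7 as lower (4.35%). Without MNK-3 replicate 1 the higher count was 6, and with trimmed-mean or median-of-ratios scaling it was 6 with none lower. Batf, an AP-1 partner in type 2 responses, had 161 CPM in ILC2 and 30.4 CPM in NK, while MNK-3 had 12.3 and 8.56 CPM. Pparg, a lipid-sensing nuclear receptor, had 89.7 CPM against 1.51 CPM in NK and, for MNK-3, 15.6 and 0.329 CPM. The other regulators were not set apart. Id2, which all innate lymphoid cells use, had 828 CPM in ILC2 and 550 CPM in NK, while MNK-3 had 142 and 185 CPM. Rora, a nuclear receptor needed for ILC2 development, had 497 CPM in ILC2 and 36.2 CPM in NK, while MNK-3 had 1292 and 1841 CPM, so the line held more than ILC2. Irf4 had 137 CPM in ILC2 against 2.16 CPM in NK, while MNK-3 had 36.1 and 0.0659 CPM, so that replicate 1 alone kept it out.

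Genes of serotonin and neuropeptide signalling gave 5 of 19 set apart as higher (26.3%). The list was split, with 6 members above every other library and 5 below. Its median log2 ratio was -0.24 over NK, -1.40 over MNK-3 replicate 1 and 0.685 over replicate 2. Tph1, the first enzyme of peripheral serotonin synthesis, had 1413 CPM in ILC2 and 1.08 CPM in NK, while MNK-3 had 8.08 and 0.198 CPM, a 175-fold distance. Nmur1, the receptor through which the nerve peptide neuromedin U activates ILC2, had 226 CPM against 2.37 CPM in NK and, for MNK-3, 6.79 and 0.857 CPM. Penk, the precursor of the enkephalin opioid peptides, had 224 CPM against 1.51 CPM in NK and, for MNK-3, 1.21 and 0.0659 CPM. Calca, which encodes calcitonin and CGRP, had 129 CPM against 0.431 CPM in NK and, for MNK-3, 2.85 and 0.329 CPM. Ramp3, a subunit of calcitonin family receptors, was also set apart at 23.8 CPM, while its partner Calcrl had 57.5 CPM in ILC2 and 59.9 CPM in NK. The enzyme that completes serotonin synthesis, encoded by Ddc, had 0.108 CPM in ILC2, with 28.8 and 0.659 CPM for MNK-3.

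Lipid mediator genes included 5 of 20 set apart as higher (25.0%) and 1 as lower. Pla2g7, a secreted enzyme that breaks down platelet-activating factor, had 900 CPM in ILC2 and 0.863 CPM in NK, while MNK-3 had 2.81 and 0.0659 CPM, 320-fold above the nearest. Alox5, the first enzyme of leukotriene synthesis, had 138 CPM against 2.16 CPM in NK and, for MNK-3, 14.8 and 0.395 CPM. Cysltr1, a receptor for cysteinyl leukotrienes, had 73.1 CPM against 0.431 CPM in NK and, for MNK-3, 2.77 and 0.461 CPM. Ptgir, the prostacyclin receptor, had 102 CPM against at most 18.3 CPM, and Ptgs2, the inducible cyclooxygenase, 29.1 CPM against at most 5.23 CPM. Ptger4, a prostaglandin E2 receptor, was lower instead, with 8.17 CPM in ILC2 and 135 CPM in NK, while MNK-3 had 120 and 106 CPM. Ptgdr2, the prostaglandin D2 receptor CRTH2 often used to mark human ILC2, had 0.430 CPM in ILC2, and Hpgds, which makes prostaglandin D2, had 3.33 CPM.

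Among 19 checkpoint and costimulatory receptors, Icos and Ctla4 were set apart as higher and Cd28, Cd96 and Cd160 as lower (10.5% and 15.8%). Icos, a costimulatory receptor of ILC2, had 508 CPM in ILC2 and 10.8 CPM in NK, while MNK-3 had 20.8 and 31.8 CPM. Ctla4, its neighbour 62.1 kb away on chromosome 1, had 21.4 CPM against no counts in NK and, for MNK-3, 3.04 and 0.461 CPM. Tnfrsf8, which encodes CD30, had 542 CPM against 2.59 CPM in NK and, for MNK-3, 27.3 and 0.0659 CPM, and Tnfsf10, the death ligand TRAIL, had 284 CPM against 23.1, 23.5 and 6.13 CPM. Both belong to the TNF family list, of which 2 of 21 were higher (9.52%) and 1, Ltb, lower (4.76%), or 2 lower without MNK-3 replicate 2. Klrg1 and Pdcd1, found on activated ILC2, were not set apart, at 20.8 CPM against 89.7 CPM in NK and at 47.6 CPM against 18.2 and 19.2 CPM for MNK-3.

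Of 15 chemokine receptors, Ccr1 and Ccr4 were set apart as higher (13.3%). As a whole the list was not raised in ILC2, since 3 members lay above every other library and 6 below. Of all 30731 shared genes, 2385 lay above and 7488 below. The list summed to 472 CPM in ILC2, against 1570 CPM in NK and, for MNK-3, 593 and 615 CPM. Ccr1 had 114 CPM in ILC2 and no counts in NK, while MNK-3 had 3.32 CPM and no counts. Ccr4, a receptor on type 2 lymphocytes, had 67.8 CPM against 1.51 CPM in NK and, for MNK-3, 14.3 and 0.264 CPM. Ccr8, known from type 2 cells as well, had 6.34 CPM and did not reach the minimum. None of 12 chemokines was set apart. Arg1, the arginase that ILC2 carry, had 68.3 CPM against 2.59 CPM in NK and, for MNK-3, 12.7 and 0.725 CPM, and was set apart as 1 of 13 genes on the arginine and polyamine list, of which 2 were without MNK-3 replicate 1, with trimmed-mean scaling or after thinning, and 3 with median-of-ratios scaling. Cish, a STAT5-induced inhibitor of cytokine signalling, had 103 CPM against at most 15.7 CPM, and Itgb8, an integrin chain that activates TGF-beta, 57.5 CPM against at most 7.22 CPM. H2-Ab1, an MHC class II chain, had 81.1 CPM against 9.49 CPM in NK and, for MNK-3, 9.56 and 0.0659 CPM, whereas its partner H2-Aa had 2.26 CPM and Cd74 14.6 CPM in ILC2. MHC genes differ between mouse strains. Against MNK-3, the part of strain in this value cannot be told apart from that of cell type, while ILC2 and NK came from the same strain.

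With all libraries in, the gene farthest above its nearest library was Peg10, a paternally expressed imprinted gene derived from a retrotransposon. It had 2548 CPM in ILC2 and 7.33 CPM in NK, while MNK-3 had 4.68 and 0.198 CPM, a 348-fold distance. Without MNK-3 replicate 1, 11 genes lay farther above the others than Peg10, among them Il13, Il5, Il1rl1 and Pla2g7. Sgce, the imprinted gene whose start lies 99 bp from that of Peg10 on chromosome 6, was set apart as well, at 41.8 CPM against 3.45 CPM in NK and, for MNK-3, 6.67 and 0.659 CPM. The other 17 measured imprinted genes were not. The metallothioneins Mt1 and Mt2, metal-binding proteins 5.51 kb apart on chromosome 8, had 258 and 52.0 CPM in ILC2, and Mt1 at most 2.23 CPM and Mt2 at most 0.429 CPM elsewhere. Their sequences are alike, so reads may be split unevenly between them. Slc7a8, a neutral amino acid transporter, had 424 CPM against at most 6.40 CPM, and Mras, a Ras family GTPase, 414 CPM against at most 7.495 CPM. Calb2, a calcium-binding protein best known from neurons, had 144 CPM against at most 2.65 CPM.

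All 18 glycolysis genes were higher in ILC2 than in every other library, 16 of them at 2-fold or more, and 8 were set apart (44.4%). Of all 30731 shared genes, 2385 were higher in ILC2 than in every other library, 624 of them at 2-fold or more. Only 8862 shared genes reached 10 CPM in ILC2. These totals also stand beside the lists below. The median log2 ratio of the glycolysis genes was 3.31 over NK, 2.13 over MNK-3 replicate 1 and 2.12 over replicate 2, and over the alternatives it ranged from 3.25 to 3.67, 1.97 to 3.46 and 2.06 to 2.25. The listed genes summed to 14210 CPM in ILC2, against 1962 CPM in NK and, for MNK-3, 2965 and 3584 CPM. Aldoa, the muscle-type aldolase, had 2665 CPM in ILC2 and 175 CPM in NK, while MNK-3 had 292 and 393 CPM. Ldha, which makes lactate, had 2021 CPM against 191 CPM in NK and, for MNK-3, 305 and 408 CPM. Slc2a3, the glucose transporter GLUT3, had 1065 CPM against 88.2 CPM in NK and, for MNK-3, 29.8 and 1.51 CPM. Slc16a3, a lactate exporter, had 363 CPM against 7.33 CPM in NK and, for MNK-3, 27.1 and 1.32 CPM. The set further held Eno1, Gpi1, Slc2a1 and Aldoc, and Pgk1 lay just outside, at 3.996-fold.

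Genes known as targets of the hypoxia-inducible factors were gathered after their values were seen, and 8 were set apart as higher. Ero1l, an oxidase of the endoplasmic reticulum, had 2566 CPM in ILC2 and 15.7 CPM in NK, while MNK-3 had 82.0 and 106 CPM. Egln3, an oxygen sensor, had 483 CPM against 3.23 CPM in NK and, for MNK-3, 21.4 and 1.12 CPM. Bnip3, a mitophagy receptor, had 179 CPM against 6.68, 16.1 and 18.2 CPM. Ndrg1, Ankrd37, Ak4, Fam162a and Ddit4 completed the group, whose folds over the nearest library ran from 4.43 to 24.1. All 8 were chosen for being set apart, so their number says nothing about the pathway's other genes.

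Of 20 cholesterol synthesis and uptake genes, 17 were higher in ILC2 than in every other library and 5 were set apart (25.0%), or 3 when libraries were scaled on abundant genes. The median log2 ratio was 3.01 over NK, 1.00 over MNK-3 replicate 1 and 1.36 over replicate 2. Hmgcs1, a synthase early in the pathway, had 402 CPM in ILC2 against 36.7, 46.3 and 44.7 CPM. Insig1, a sterol-sensing brake on the pathway, had 208 CPM against 26.3, 22.2 and 23.8 CPM. In both genes the other libraries lay close together. Idi1, Mvk and Hsd17b7 were highest in MNK-3 replicate 1, at 24.5, 39.9 and 42.7 CPM against 12.3, 31.6 and 32.4 CPM in ILC2.

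Genes for fatty acid and lipid synthesis were also gathered later, as 7 members of the higher set. All were chosen for being set apart, so their number says nothing about other genes of lipid synthesis. Scd2, a fatty acid desaturase, had 3242 CPM in ILC2 and 90.8 CPM in NK, while MNK-3 had 77.0 and 80.3 CPM. Scd1, a close copy 87.6 kb away on chromosome 19, had 829 CPM against 40.8 CPM in NK and, for MNK-3, 10.2 and 1.78 CPM, and reads may be split unevenly between the copies. Fads2, Acsl3, Lpcat3, Dgat2 and Me1 had between 42.0 and 194 CPM in ILC2. Cyp11a1, which makes pregnenolone from cholesterol, had 758 CPM in ILC2 and 1.73 CPM in NK, while MNK-3 had 26.8 and 0.132 CPM.

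**Figure D3:**
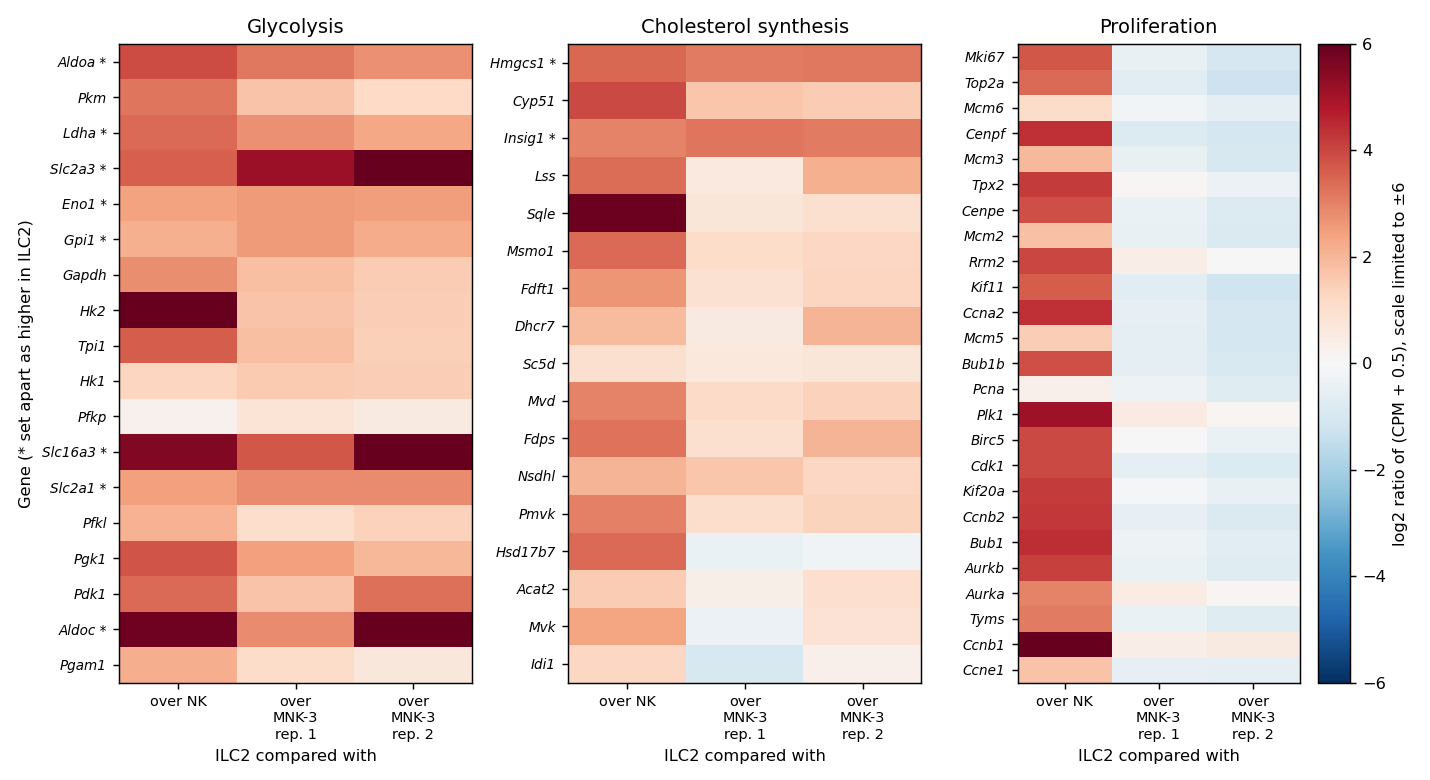
Log2 ratio of ILC2 over each other library, after adding 0.5 CPM, for genes of the glycolysis, cholesterol synthesis and proliferation lists (3 cholesterol genes are not drawn), ordered by CPM in ILC2; colours stop at 6 and stars mark genes set apart as higher. Every glycolysis gene is above 0 in all 3 columns, as are 14 of the 17 cholesterol genes drawn, and proliferation is red over NK and near white over MNK-3, with medians of 3.89, -0.41 (0.74 and 0.92 with other scalings) and -0.75.

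Proliferation genes lay above NK by their median, and near the line. None of 25 was set apart from all libraries. The median log2 ratio was 3.89 over NK, -0.41 over MNK-3 replicate 1 and -0.75 over replicate 2. The sign over replicate 1 turned to 0.74 with trimmed-mean scaling and 0.92 with median-of-ratios scaling. Mki67, the proliferation antigen, had 2014 CPM in ILC2 and 150 CPM in NK, while MNK-3 had 2745 and 4011 CPM. Of 20 Myc and ribosome biogenesis genes, 17 were higher in ILC2 than in every other library, yet none was set apart (2 with trimmed-mean scaling, 3 with median-of-ratios scaling and 1 without MNK-3 replicate 1), with medians of 1.32, 0.62 and 0.84. Myc itself had 228 CPM in ILC2 and 62.3 CPM in NK, while MNK-3 had 50.7 and 19.5 CPM.

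Secretory pathway and unfolded protein response genes were higher in ILC2 than in every other library in 18 of 20 cases, with medians of 1.26, 1.68 and 1.34, and 1 was set apart, or 2 with trimmed-mean or median-of-ratios scaling. Pdia6, a disulfide isomerase, had 691 CPM in ILC2 and 145 CPM in NK, while MNK-3 had 126 and 160 CPM. Outside the list, Ero1l, Serp1, Sec24d, Ckap4 and Spcs3, which fold, protect, carry or cleave new secretory proteins, were also in the set. Furin, the protease that cuts many precursors on their way out, had 3417 CPM in ILC2 and 93.6 CPM in NK, while MNK-3 had 220 and 263 CPM. Gm44851, an antisense gene that overlaps Furin on chromosome 7, was set apart at 32.3 CPM, and without the strand setting reads of the 2 cannot be told apart.

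Other members of the higher set, named after their values were seen, had varied roles. Receptors on the cell surface included Ffar2 for short-chain fatty acids (97.0 CPM, 22.6-fold above the nearest library), Gpr55 (164 CPM, 11.9-fold), Htr1b for serotonin (39.0 CPM, 18.5-fold) and P2ry14 for UDP-sugars (76.8 CPM, 6.85-fold). Jak2, the kinase of many cytokine receptors, had 792 CPM in ILC2 against 179 CPM in NK and, for MNK-3, 104 and 128 CPM. Irak3, an inhibitor of signalling from IL-1 family receptors, had 280 CPM against 3.02 CPM in NK and, for MNK-3, 17.9 and 19.8 CPM. Hlf, a transcription factor of blood progenitors, had 591 CPM against 2.80, 21.6 and 25.8 CPM, and Rbpj, the DNA-binding partner of Notch, 332 CPM against 12.5, 69.0 and 60.02 CPM. Ly6a, the stem cell antigen Sca-1 found on marrow ILC2, had 530 CPM against 0.863 CPM in NK and, for MNK-3, 96.4 and 126 CPM. The 3 interferon-induced transmembrane genes Ifitm1, Ifitm2 and Ifitm3, close copies on chromosome 7, had 142, 36.9 and 34.7 CPM against at most 4.29 CPM. Of all 203 genes, 57 were in a list, 55 more in a group named later and 91 in neither. Just inside the limit lay Mgat5, Spcs3 and Samsn1, at 4.002 to 4.067-fold, and just outside it Pgk1, Rbfa and Pgm1, at 3.996 to 3.944-fold.

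Cd28 and Cd7 lay farthest below the other libraries. Cd28, the T cell costimulatory receptor, had 1 count in ILC2 (0.108 CPM), against 81.9 CPM in NK and, for MNK-3, 50.6 and 36.6 CPM, which is 340-fold below the nearest library with a 95% counting interval of 60.8 to 13500. Cd7, an early T and NK cell antigen, had no counts in ILC2 against 306 CPM in NK and, for MNK-3, 59.4 and 77.5 CPM, at least 184-fold lower. Klrb1c, the NK receptor NK1.1, had 1 count against 715 CPM in NK and, for MNK-3, 11.1 and 16.01 CPM. It passed the minimum of 10 CPM narrowly and left the set with 3 of the 6 other scalings and thinnings. Fcgr3, a receptor for antibody, had 3 counts (0.323 CPM) against 70.5, 28.0 and 38.1 CPM, 86.9-fold lower with an interval of 29.6 to 422. Other genes far down were Dmrta1, with 1 count against 18.5, 30.6 and 41.6 CPM, Xylt1, an enzyme that starts proteoglycan chains, with 0.538 CPM against 37.7, 54.7 and 46.4 CPM, and Itih5, with 1.51 CPM against 95.5, 115 and 157.5 CPM. Klrb1c and Klrb1b belong to the NK gene complex, which varies between mouse strains.

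Txk, a Tec family kinase, had 0.645 CPM in ILC2 and 387 CPM in NK, while MNK-3 had 89.9 and 74.7 CPM, 116-fold below the nearest. Ipcef1, a partner of Arf GTPase exchange factors, had 0.538 CPM against 242, 69.3 and 80.2 CPM. Lax1, an adaptor that dampens lymphocyte receptor signals, had 0.645 CPM against 181, 33.4 and 27.9 CPM, and Prkch, a protein kinase C, 9.25 CPM against 451, 127 and 120 CPM. In each of these, NK held the highest level and ILC2 lay below both MNK-3 libraries. Cd96, a receptor for nectin-like ligands, had 10.3 CPM against 89.9, 140 and 196 CPM, and Cd160 0.968 CPM against 97.0, 29.7 and 20.4 CPM. Trbc1, a T cell receptor beta constant gene, had 1.08 CPM against 38.6 CPM in NK and, for MNK-3, 84.5 and 115 CPM. Reads of Trbc1 and its near copy Trbc2, at 3.01 CPM in ILC2, may be split unevenly.

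**Figure D4:**
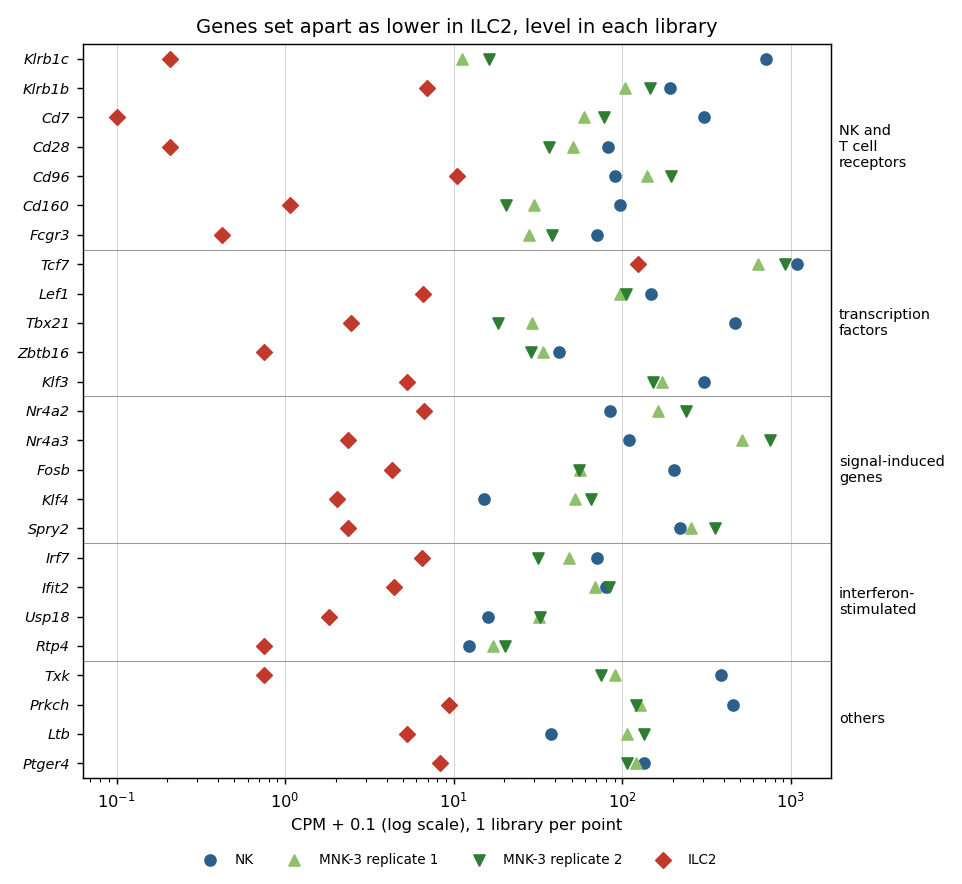
CPM + 0.1 (log scale) of selected genes set apart as lower in ILC2, by function, with 1 point per library: diamonds ILC2, circles NK, upward and downward triangles MNK-3 replicates 1 and 2. ILC2 is the leftmost point in every row, from no counts for Cd7 to 124 CPM for Tcf7.

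Among 27 group 1 and cytotoxic genes, Tbx21, Klrb1c and Fcgr3 were lower than every other library by the size rule (11.1%, against 0.42% of all shared genes), and 5 were so without MNK-3 replicate 2. Tbx21 had 2.37 CPM in ILC2 and 465 CPM in NK, while MNK-3 had 29.2 and 18.2 CPM. Most of the list was high in NK alone, so that ILC2 and MNK-3 both lay far below it, with sums of 16630 CPM in NK, 1038 CPM in ILC2 and, for MNK-3, 470.5 and 468 CPM. The list median was -7.93 over NK, -1.80 over MNK-3 replicate 1 and 0 over replicate 2. With levels raised to the floor of 3 counts, the medians were -8.405, -1.881 and -1.409. Genes at the floor in both libraries were left out there, which left 19 of 27 over replicate 2. Of 20 group 3 genes only Ltb, a lymphotoxin chain, was set apart as lower, with 5.16 CPM in ILC2 and 37.7 CPM in NK, while MNK-3 had 106 and 135 CPM.

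Several transcription factors of lymphoid development were in the lower set. Tcf7, which encodes TCF-1 and serves early innate lymphoid progenitors, had 124 CPM in ILC2 and 1092 CPM in NK, while MNK-3 had 639 and 919 CPM, and left the set with trimmed-mean and median-of-ratios scaling. Lef1, the related Wnt pathway factor, had 6.45 CPM against 148, 97.0 and 105 CPM. Zbtb16, which encodes the progenitor factor PLZF, had 0.645 CPM against 42.0, 33.8 and 28.7 CPM. Klf3, a repressor of the Krüppel family, had 5.16 CPM against 305, 173 and 152 CPM. For Lef1, Zbtb16 and Klf3, the other libraries lay nearer to one another than to ILC2. Nfatc1 and Nfatc2, calcium-regulated factors, had 95.2 and 30.1 CPM in ILC2, against 429 CPM or more and 159 CPM or more in the other libraries.

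Signal-induced genes were a further group. Of 19 immediate early and trafficking genes, 4 were set apart as lower (21.1%) and none was higher in ILC2 than in every other library. The medians were -3.18 over NK, -1.60 over MNK-3 replicate 1 and -1.32 over replicate 2, with no change of sign in any alternative. Nr4a3, an orphan nuclear receptor induced by antigen receptor and other signals, had 2.26 CPM in ILC2 and 110 CPM in NK, while MNK-3 had 512 and 756 CPM. Nr4a2 had 6.56 CPM against 84.3, 162 and 240 CPM, Fosb 4.19 CPM against 203, 55.8 and 55.2 CPM, and Klf4 1.94 CPM against 15.1, 52.3 and 65.1 CPM. Spry2, a feedback inhibitor of receptor tyrosine kinase signals, had 2.26 CPM against 219, 256 and 353 CPM, 97.1-fold below the nearest. Junb, in contrast, had 390 CPM in ILC2, above both MNK-3 libraries at 91.2 and 122 CPM and below NK at 775 CPM.

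Interferon-stimulated genes gave 4 of 22 set apart as lower (18.2%) and none as higher, and 13 of 22 lay below every other library. Of all 30731 shared genes, 7488 lay below every other library. The interferon list does not hold Ifitm1, Ifitm2 and Ifitm3, the interferon-induced genes given above as higher in ILC2. The medians were -1.40 over NK, -2.28 over MNK-3 replicate 1 and -1.33 over replicate 2. Irf7, the amplifier of interferon responses, had 6.34 CPM in ILC2 and 70.5 CPM in NK, while MNK-3 had 48.3 and 31.4 CPM. Ifit2 had 4.30 CPM against 80.4, 68.7 and 83.2 CPM, and Usp18, which shuts off interferon receptor signals, 1.72 CPM against 15.96, 31.7 and 32.5 CPM. Rtp4, an interferon-induced chaperone, had 0.645 CPM against 12.3, 17.0 and 20.03 CPM. Irf7 left the set with trimmed-mean scaling and, with Rtp4, with median-of-ratios scaling.

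Of the 129 lower genes, 20 were in a list, 30 more in a group named later and 79 in neither. Among those named later, Tnfrsf1a, the main receptor for TNF, had 3.12 CPM in ILC2 against 77.2, 67.0 and 89.2 CPM. Myo1f, a leukocyte myosin, had 17.5 CPM against 659, 134 and 181 CPM, and Rnf43, a brake on Wnt receptors, 17.4 CPM against 92.1, 331 and 449 CPM. The rest ranged down to Kbtbd7, Sorl1 and Pdk2, just inside the limit at 4.01 to 4.12-fold, while Cd38, Zbtb10 and Rab37 lay just outside it, at 3.97 to 3.94-fold.

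**Figure D5:**
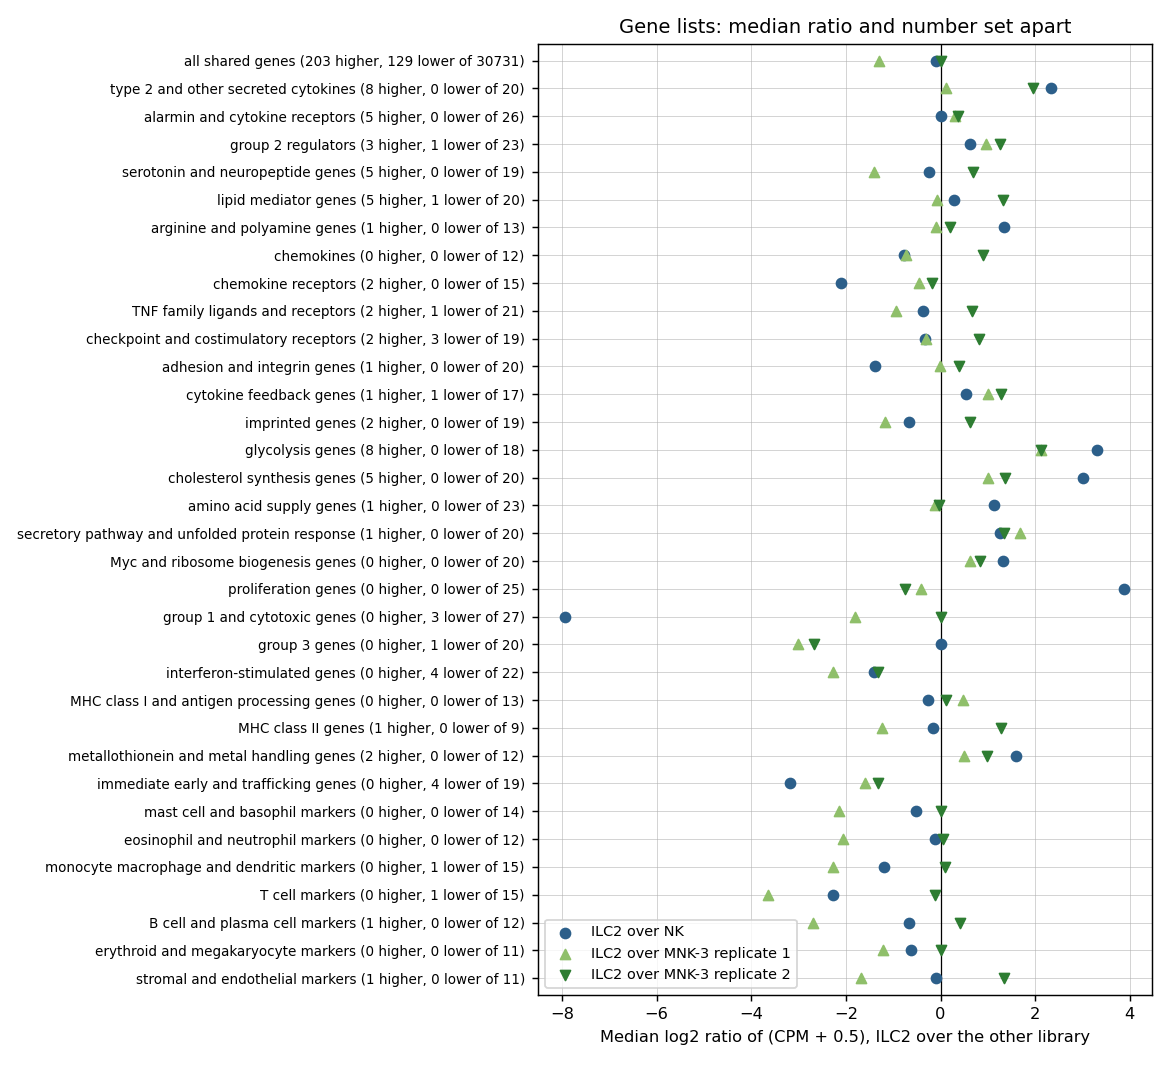
Median log2 ratio of ILC2 over NK (circles) and over MNK-3 replicates 1 and 2 (upward and downward triangles), after adding 0.5 CPM, for each gene list, with the numbers set apart of those measured in the labels. Glycolysis stands to the right in all 3 comparisons, and immediate early and interferon-stimulated genes to the left; the median over all shared genes is -1.30 over MNK-3 replicate 1.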

How the data were processed

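RNA of 4 libraries (RNA integrity above 9) was sequenced as pairs of 38 bp reads from SMARTer Stranded Pico libraries on a NextSeq 500, per the labels' protocols, which also speak of technical replicates, while each table holds 1 column of values. Alignment with STAR 2.7.8a and gene counting with HTSeq on mm10/GRCm38 are per the submitters' processing notes, and the strand setting and gene set are not given in the sources used here. The deposited values, of a unit recorded as other, are whole-number read counts per gene, not normalized by the authors. NK and ILC2 list 53465 genes each and MNK-3 lists 31053, of which 30731 are shared. Genes outside these held 3.05% (NK), 1.89% (ILC2), 0.131% and 0.0399% (MNK-3) of gene reads. Entries that name no gene held 49.3%, 25.9%, 76.5% and 26.6% of reads and were dropped.

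CPM was computed from shared-gene totals, and log2 ratios after adding 0.5 CPM. No test was run, since ILC2 and NK have 1 library each. Folds against no counts used 3 counts per library and are lower bounds. Counts of the MNK-3 pair were farther apart than sampling noise (chi-square 69.7 per degree of freedom). Symbols and coordinates came from GENCODE M21 (30615 genes named), and promoters from RefSeq for GRCm38.p6. The size rule was tested on simulated data. Python 3.11.15, numpy 2.4.6, pandas 2.3.3, scipy 1.17.1 and matplotlib 3.10.9 were used.

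The members, the 33 gene lists and the rules were chosen with earlier results of these data known. Named genes were the 4 markers, the 20 higher genes with most CPM per kilobase, the 20 with the largest fold in each direction, list members set apart (up to 8 per list and direction), up to 3 list members not set apart, and the 3 genes nearest the limit on each side. Other genes in the text were chosen after their values were seen. Alternatives were other scalings, folds, minimum levels, added CPM, thinning to the smallest library and leaving out each MNK-3 library. Some listed genes are counted in the list totals but not reported here by name.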

Additional observations from a re-analysis of the deposited data

Results flagged for a closer look

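Genes outside the shared set were listed for NK and ILC2 alone, so MNK-3 gives no value for them. Of 22734 such genes, 176 had 10 CPM or more in ILC2, and 15 of these were also at least 4 times NK. By the same sizes, 996 of the 8862 shared genes at 10 CPM or more in ILC2 were higher than NK. The 15 genes thus do not stand out by their number, and the comparisons above do not use them. They include Cct6a (432 CPM in ILC2, 105 CPM in NK), Tmed10-ps (94.2 CPM, 23.3 CPM in NK) and Ifi30 (70.0 CPM, 4.10 CPM in NK). By annotation 7 of the 15 are processed pseudogenes, and Cct6a and Ifi30 are listed as processed transcripts.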

How the results depend on the processing

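No paired analysis was possible because ILC2 and NK have 1 library each. The 203 higher genes became 333 with trimmed-mean (TMM) scaling, 361 with median-of-ratios scaling, 540 at 2-fold and 96 at 8-fold, and 218 to 338 when 1 MNK-3 library was left out (338 without replicate 1). The 129 lower genes became 74 and 69 with these scalings, 513 at 2-fold, 53 at 8-fold, 390 with a minimum of 1 CPM, 1864 with none, 49 with 50 CPM, 486 with 10 CPM asked of 1 other library, 228 against the MNK-3 mean, and 140 to 319 when 1 MNK-3 library was left out (319 without replicate 2). Higher genes were 61.1% of those set apart, 81.8% with TMM, 84.0% with median-of-ratios scaling, and 70.7% and 40.6% without MNK-3 replicate 1 or 2. These scalings moved the median of all shared genes over MNK-3 replicate 1 from -1.30 to -0.62 and -0.51, and over NK from -0.09 to 0. Scaling on genes at 100 CPM or more everywhere, chosen after seeing the data, gave 190 and 127. Of 113 named genes set apart, 101 stayed in their set under every scaling and the thinning. Of 102 list medians, 17 had the other sign in some alternative, and no named gene's ratio to its nearest library turned. The cause of these shifts was not tested. NK is the shallowest library, so low NK levels are the least precise.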

Other observations

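Xist, the long RNA of the inactive X chromosome, was set apart as higher, with 99.9 CPM in ILC2 and 1.94 CPM in NK, while MNK-3 had 7.22 and 0.132 CPM. Y-linked genes were present in every library. Ddx3y had 41.7 CPM in ILC2 and 112 CPM in NK, while MNK-3 had 77.4 and 107 CPM, and Kdm5d had 26.8 CPM against 62.5, 81.9 and 93.1 CPM. The labels give no sex, and ILC2 came from pooled mice.

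The casein genes Csn1s1 and Csn2, milk proteins that lie 10 kb apart on chromosome 5, were both set apart as higher. Csn1s1 had 61.8 CPM in ILC2 and at most 1.99 CPM elsewhere, and Csn2 23.7 CPM and at most 4.84 CPM. The higher set held 22 pairs of neighbours within 200 kb and the lower set 11, counting overlapping genes and close copies. No rate for other gene sets of these sizes was computed, so the counts do not show clustering. Further examples of such pairs were Glb1 and Ccr4 (15.4 kb) and Lilr4b and Lilrb4a (4.25 kb) among higher genes. Among lower genes they were Tbx21 and Tbkbp1 (20.8 kb) and Klrb1c and Klrb1b (24.5 kb).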
